A study of Mus musculus with 32 samples.

Results

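Heavy polysome RNA of serum-starved cells was compared with heavy polysome RNA of cells in complete medium (basal), in mouse NIH 3T3 fibroblasts and in their derivative NIH 3T3/4E, with equal weight for both lines. The comparison takes every heavy fraction column of the series, 16 of the 32 columns, which became 8 of 16 samples once title numbers 1 with 2 and 3 with 4 were averaged. Its 4 groups were NIH3T3 basal, NIH3T3 starved (16 h without serum), 4E basal and 4E starved, with 2 samples each, so each serum state had 4 samples. The 4E cells carry ectopic eIF4E, and the sources used here do not give the promoter, the vector or whether the line is 1 clone. All 4 groups share the NIH 3T3 background, the heavy pool (gradient fractions 7 to 10) and the reference, poly(A) RNA from NIH 3T3 cells in full growth medium that did not pass a gradient. Each sample was hybridised against it on 2-colour arrays, printed with mouse cDNA clones of the NIH 15k set.

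eIF4E binds the 5′ cap of messenger RNAs and recruits the ribosome to them. When serum is withdrawn, signalling through mTOR falls, proteins of the 4E-BP family hold back eIF4E, and many transcripts carry fewer ribosomes. Heavy polysomes hold transcripts that several ribosomes read at the same time, so the RNA in this pool reflects both how much of a transcript a cell has and how densely it is translated. The study's design text places the 16 h time point ahead of cytochrome c release, and the question is which transcripts on heavy polysomes differ by then.

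Clones could be named by ID only, since the deposited table has no gene column and the RefSeq table (GRCm38.p6) held 0 of these IDs. Fibroblast markers and the clone of eIF4E itself were therefore not checked. Values are the deposited log ratios, taken as log2 and centred on each sample's median. Differences are therefore relative to the median clone, and a rise or fall shared by all clones cannot be seen. Whether the ratio has the sample or the reference on top is not given, so positive and negative below mean a higher and a lower deposited ratio in starved than in basal samples. Separate cultures are not stated for the samples of a group, so the replicate spread behind the p-values may be technical only. Of 15247 clones, 15203 were measured in all 8 heavy samples.

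Heavy replicates were moderately alike across clones, with r from 0.53 (4E starved) up to 0.68 (4E basal). The second 4E starved sample (title numbers 3 and 4) stood apart, with a median absolute deviation of 0.74 against 0.53 to 0.60 in the other heavy samples and a median r of 0.39 with them. The arrays also fall into 2 sides, since the 2 control rows hold values for NIH3T3 basal and 4E starved samples and are empty for NIH3T3 starved and 4E basal samples. Samples on the same side that differ in both line and serum state correlated at a median r of 0.54, and samples of the same serum state from different lines at 0.50. A comparison of serum states within 1 line crosses this split. The average of both lines does not, because an offset between the sides enters the lines with opposite signs and cancels in the difference. The fit of this average with cell line as covariate has no line by serum term. An offset between the sides, or a response that depends on the line, therefore adds to its residual spread and widens its p-values and intervals.

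With both lines weighted equally, no clone passed an adjusted p of 0.05 in limma with cell line as covariate (0% of 15203 tested). At an unadjusted p under 0.05 there were 1166 clones (7.67%), 705 with a positive (4.64%) and 461 with a negative (3.03%) starved minus basal difference. Clone H3128D02 came nearest, with an adjusted p of 0.0665. Relative to the median clone, differences were small for most clones, with 14751 (97.0%) within 1 log2 unit of 0. The 5th and 95th percentiles of all differences were -0.61 and 0.75. Differences past 1 unit were positive at 328 clones and negative at 124, and past 2 units positive at 6 and negative at 1. The median 95% half-width of a difference was 0.67 log2 units, not adjusted for multiple clones. A fit of the heavy samples as 4 group means, which holds the split as a term, also gave 0 clones in limma (1491 at an unadjusted p under 0.05). The median SD of a clone, as moderated by limma, was 0.43 with cell line as covariate and 0.39 with 4 group means. A fit of all 16 heavy and light samples as 8 group means gave 64 (0.422%, 43 positive, 21 negative).

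**Figure D1:**
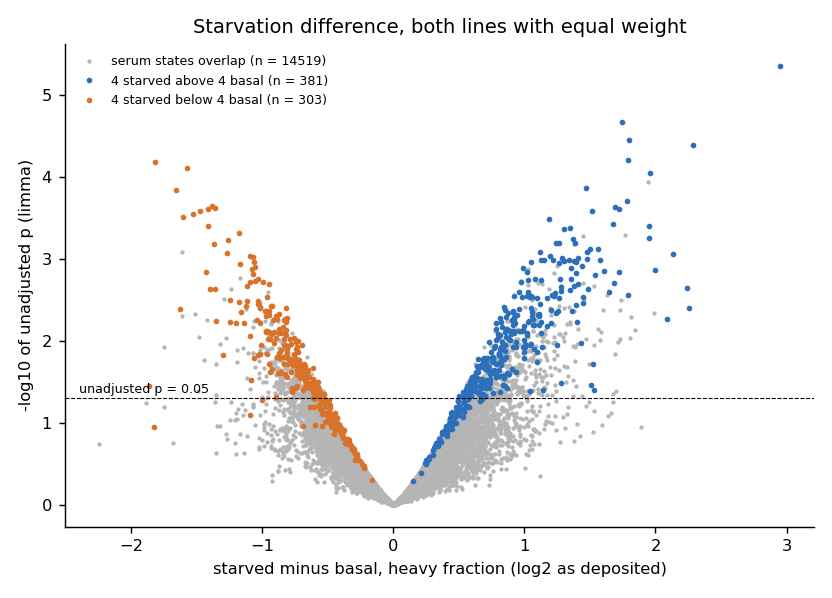
Starved minus basal difference of 15203 clones in heavy polysomes (x axis, log2 as deposited, both lines with equal weight) against -log10 of the unadjusted limma p (y axis), with clones whose 4 starved samples all lie above (blue, 381) or below (orange, 303) the 4 basal samples. Clone H3128D02 is alone at the upper right, at a difference of 2.95, and more of the differences past 1 unit are positive than negative.

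Clone H3128D02 had the largest difference of all clones. Its heavy basal samples stood at -1.17 and -0.53 in NIH3T3 and at -1.58 and -1.41 in 4E cells. Its heavy starved samples stood at 1.75 and 1.95 in NIH3T3 and at 0.97 and 2.46 in 4E cells. Each starved sample was therefore above each basal sample, and the basal and starved ratios lay on opposite sides of the sample median in both lines. The means were -1.17 ± 0.46 in basal and 1.78 ± 0.62 in starved samples (SD, n = 4 each). The difference was 2.95 (SE 0.34, 95% interval 2.19 to 3.71, limma adjusted p = 0.0665). The differences were 2.70 in NIH3T3 and 3.21 in 4E cells, and the latter had an adjusted p of 0.0389 in the fit of the 4 heavy groups. Within the sides of the control-row split, where line and serum change together, it was 2.56 on the side with control values and 3.34 on the other. The adjusted p crossed to 0.0497 without the second 4E starved sample, at a difference of 2.60, and ranged up to 0.572 with another sample left out. It was 0.00663 in the fit of all 16 samples.

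Clone H3013C04, chosen after its values were seen as the next largest positive difference without overlap, had higher deposited ratios in starved than in basal samples of both lines. Its heavy starved samples stood at 3.05 and 2.90 in NIH3T3 and at 2.13 and 3.52 in 4E cells. Its heavy basal samples stood at 1.23 and 0.93 in NIH3T3 and at 0.35 and -0.06 in 4E cells. The basal samples of NIH3T3 were above those of 4E cells, while the starved samples of the lines overlapped. The difference was 2.28 (SE 0.34, limma adjusted p = 0.151), which does not pass the threshold.

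On the negative side clone H3019C03 had the smallest p. Its heavy basal samples stood at 1.30 and 0.61 in NIH3T3 and at 0.21 and 0.42 in 4E cells, and its starved samples at -0.99 and -0.52 in NIH3T3 and at -1.22 and -2.01 in 4E cells. The serum states did not overlap, and within each line the means were 1.71 (NIH3T3) and 1.93 (4E) apart, at differences of -1.71 and -1.93. The difference over both lines was -1.82 (SE 0.29, 95% interval -2.45 to -1.19, limma adjusted p = 0.164). It was -2.57 within the side with control values and -1.07 within the other.

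Clone H3053C12 had the largest negative difference among clones without overlap, and it was singled out after its values were seen. Its value rests on 1 sample, since the first NIH3T3 basal sample stood at 5.03 and the other basal samples at 0.60, 1.03 and 1.11. The starved samples lay between -0.32 and 0.49. The difference was -1.86 (SE 0.77, limma adjusted p = 0.618), and the deposited columns of this clone were equal in 4 of the 8 heavy samples. Without that sample it was -0.80.

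Clones whose 4 starved and 4 basal samples do not overlap numbered 684 (4.50% of those tested). In 381 of them (2.51%) every starved sample was above every basal sample, with a median difference of 0.81 and a range of 0.15 to 2.95. In 303 (1.99%) every starved sample was below, with a median of -0.72 and a range of -1.86 to -0.16. The median difference over all clones was 0.03. By construction the lines do not disagree in these clones, and the medians were 0.67 in NIH3T3 and 0.88 in 4E cells for the first list and -0.61 and -0.77 for the second. Without the second 4E starved sample, which leaves 3 starved samples and so a weaker condition, the lists held 609 and 529 clones.

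The light fraction (gradient fractions 4 to 6) gives a readout in arrays that the choice of these clones did not use. Of the 380 clones of the first list that were also measured in all light samples, 343 (90.3%) had a positive starved minus basal difference there, against 52.8% of all 15169 clones. Of the 302 of the second list, 249 (82.5%) had a negative light difference, against 47.2% of all clones. Among clones whose heavy serum states overlap, the light sign matched at 63.9% of those with a positive heavy difference. It matched at 60.1% of those with a negative one. The median light difference was 0.49 in the first list (quartiles 0.22 and 0.79) and -0.32 in the second (quartiles -0.62 and -0.08), against 0.02 over all clones. Light samples also did not overlap in the same direction at 100 clones of the first list (26.3% of it, and 27.7% of such light clones, which were 2.38% of all) and at 45 of the second (14.9% of it, and 15.3% of such light clones, 1.94% of all). None of the clones of either list was without overlap in the opposite direction in the light samples. Whether heavy and light samples came from the same gradients is not given, and the part of shared cultures in these counts was not tested. Among clones with unequal columns in all heavy samples, the light sign matched in 97.1% of 205 and 90.1% of 141 clones that were also measured in all light samples. Without the second 4E starved sample the shares were 85.7% and 78.0%.

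**Figure D2:**
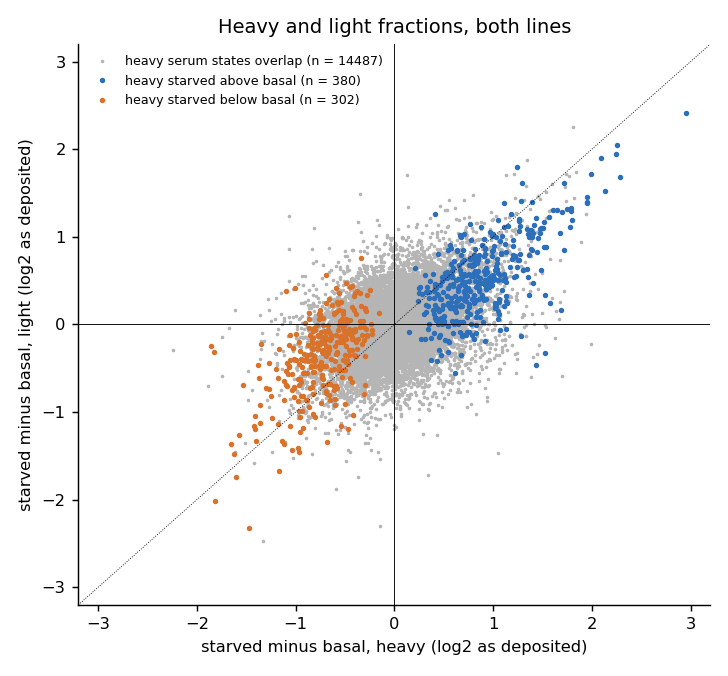
Starved minus basal difference in heavy (x axis) and light polysomes (y axis), log2 as deposited, for clones measured in all 16 samples, with the 380 clones whose heavy starved samples all lie above (blue) and the 302 whose heavy starved samples all lie below (orange) the basal ones, and a dotted line of equal differences. Most coloured clones have the same sign in the light fraction, and 321 of the blue and 253 of the orange ones lie nearer to 0 there.

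Across all clones the heavy and light differences correlated at r = 0.48 (15169 clones, which are not independent replicates). In the coloured lists the light difference was nearer to 0 than the heavy one at 321 of 380 and 253 of 302 clones. The lists were chosen on the heavy values, so the larger heavy values are no sign of a stronger response in the heavy pool. The difference between the heavy and the light response was tested directly in a fit of all 16 samples. No clone passed (0%), with 361 (2.38%) at an unadjusted p under 0.05 in limma, and the median 95% half-width was 0.84 log2 units. That fit takes heavy and light samples as independent, while the deviations of same-numbered heavy and light samples from their group means correlated at r of -0.33 (NIH3T3 basal), 0.01 (4E starved), 0.21 (4E basal) and 0.36 (NIH3T3 starved). A fit of the heavy minus light differences of same-numbered samples, added after the data were seen, also gave 0 clones in limma, with 436 (2.87%) at an unadjusted p under 0.05 and a median half-width of 0.84. A clone that changes its place between the pools by less than that would mostly go unseen. The half-width is not adjusted for multiple clones, so larger changes can go unseen too. Differences of 1.56 (clone H3072H07) and -1.60 (clone H3076B11) did not pass.

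The clones nearest to a difference between the pools are given as values. Clone H3072H07 was positive in heavy 4E cells, where basal samples stood at -0.04 and -0.12 and starved samples at 1.93 and 2.34. In heavy NIH3T3 it stood at -0.11 and 0.49 in basal and at 0.82 and 0.03 in starved samples, which overlapped. Its heavy minus light response was 1.56 (SE 0.34, limma adjusted p = 1.00). Clone H3076B11 had heavy NIH3T3 basal samples at 4.03 and 2.68, while its other heavy samples lay between -0.30 and 0.41. Its heavy minus light response was -1.60 (SE 0.41, limma adjusted p = 1.00), and it rests on those basal samples of 1 line.

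The clones that passed in the light fraction under the same fit were 1 positive and 1 negative (2 of 15210, 0.0131%, by limma), and the choice did not use their heavy arrays. Both calls ended with plate centring (adjusted p = 0.0698 for each). That of clone H3003F10 also ended in 7 of 8 fits that leave out 1 light sample, and that of clone H3124H10 in all 8 (adjusted p up to 0.256), with the replicate block (0.0680) and in the fit of all 16 samples (0.119). Clone H3003F10 stood at 1.11 ± 0.22 in light basal and at -1.21 ± 0.17 in light starved samples (SD, n = 4 each), which differed by -2.32 (SE 0.22, limma adjusted p = 0.00867). Its heavy basal samples stood at -0.06 and -0.35 in NIH3T3 and at 0.09 and 0.04 in 4E cells. Its heavy starved samples stood at -1.11 and -1.63 in NIH3T3 and at -1.41 and -2.04 in 4E cells, all below the basal ones. The heavy difference was -1.48 (SE 0.27, limma adjusted p = 0.209). Clone H3124H10 had a light difference of 2.05 (SE 0.24, limma adjusted p = 0.0373). Its heavy basal samples stood at -2.39 and -1.46 in NIH3T3 and at -3.35 and -2.12 in 4E cells, and its heavy starved samples at -0.11 and -1.24 and at -0.73 and 1.78. The heavy serum states did not overlap either, and the heavy difference was 2.26 (SE 0.61, limma adjusted p = 0.379).

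**Figure D3:**
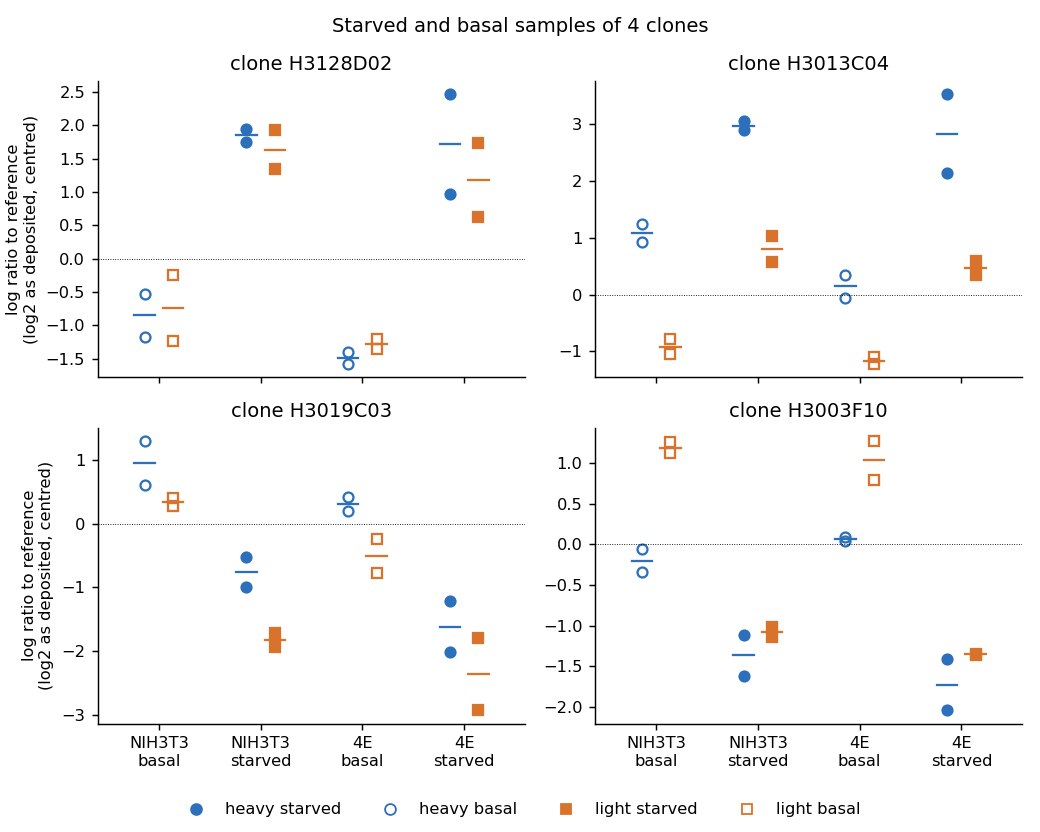
Centred log ratios (y axis, log2 as deposited) of clones H3128D02, H3013C04, H3019C03 and H3003F10 in each group of line and serum state (x axis), with 1 point per sample and a short line at the mean of 2 samples, for heavy (blue circles) and light (orange squares) polysomes, filled for starved and open for basal cells. In all 4 clones starved and basal samples of the same fraction are apart in both lines.

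The difference within each line was then taken from a fit of the 4 heavy groups. Its p-values use a spread shared over the samples of both lines. In NIH3T3 no clone passed (0%), with 1464 (9.63%) at an unadjusted p under 0.05 in limma. Clone H3003A09 had basal samples at 0.30 and 0.39 and starved samples at 2.91 and 3.29, a difference of 2.75 (SE 0.33, limma adjusted p = 0.0592). Clone H3105C02 had basal samples at 1.32 and 1.20 and starved samples at -1.69 and -1.68, a difference of -2.94 (SE 0.34, limma adjusted p = 0.0592). Both differed in the opposite direction in 4E cells, by -1.80 and 2.19, so their averages over the lines were 0.48 and -0.38. The NIH3T3 count was 5 without its first basal sample, 53 without its second basal sample and 4 without its second starved sample.

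In 4E cells 50 clones passed (0.329%), 41 positive (0.270%) and 9 negative (0.0592%). Quantile normalization turned this split to 24 positive and 18 negative, and scaling the samples to one median absolute deviation left 1 clone. Clone H3109F04 had basal samples at -0.37 and 0.11 and starved samples at 3.76 and 3.92, a difference of 3.97 (SE 0.34, limma adjusted p = 0.00588). Clone H3152B02 had basal samples at 2.81 and 3.32 and starved samples at 0.19 and -0.32, a difference of -3.13 (SE 0.40, limma adjusted p = 0.0295). For both, the NIH3T3 samples differed the other way, by -1.43 and 1.93. Clone H3152A09 (3.50, SE 0.53, limma adjusted p = 0.0389) and clone H3106B10 (-3.64, SE 0.56, limma adjusted p = 0.0389) also passed. Of the 50 clones, 33 (66.0%) had the opposite sign in NIH3T3, against 54.5% of all clones, and the median NIH3T3 difference was -0.60 over the positive ones and 0.97 over the negative ones. At 20 of the 50 the average of both lines had an unadjusted p under 0.05, against 7.67% of all clones. This average holds the 4E difference itself. Leaving out any 1 of the 8 heavy samples moved the count by over 1.5 times, to 0 without the second 4E basal sample, 18 without the first, 289 without the first 4E starved sample and 19 without the second. It was 17 without either NIH3T3 basal sample and 25 without either NIH3T3 starved sample.

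The responses of the lines differed at 100 clones (0.658%), 62 with a positive (0.408%) and 38 with a negative (0.250%) 4E minus NIH3T3 response. In all 100 the lines had opposite signs, which the choice of a large difference between them favours. Of these clones, 28 had also passed for the 4E difference (28.0% of the 100 and 56.0% of the 50). This term coincides with the control-row split, so a response that depends on the line and an offset between the sides cannot be told apart. The count was 20 without the second 4E basal sample, 41 without the first NIH3T3 basal sample and 16 without the first NIH3T3 starved sample, and 67 to 129 without 1 of the others.

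The clones with the largest such differences are given by side. The difference of the responses is itself the contrast between the sides, so the separation by side restates how they were chosen. Clone H3111E04 stood at -0.05 and 0.16 in NIH3T3 basal and at -0.14 and -0.04 in 4E starved samples, the side with control values. On the other side it stood at 4.55 and 3.35 in NIH3T3 starved and at 1.87 and 3.27 in 4E basal samples. The sides did not overlap, while starved and basal samples did, and the difference of the responses was -6.55 (SE 0.73, limma adjusted p = 0.00528). Clone H3106B10 had means of -1.41 (NIH3T3 basal) and -2.37 (4E starved) on one side and of 1.36 (NIH3T3 starved) and 1.28 (4E basal) on the other, a difference of -6.42 (SE 0.79, limma adjusted p = 0.00904). Clone H3111G01 had means of 0.07 and -0.64 against -3.05 and -3.58 in the same order, a difference of 6.07 (SE 0.85, limma adjusted p = 0.0157). Clone H3152A09 had means of -0.57 and -0.07 against -3.03 and -3.57, a difference of 5.96 (SE 0.75, limma adjusted p = 0.00904). The averages over both lines of these 4 clones were between -0.44 and 0.62. Their light group means lay in the same order by side.

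**Figure D4:**
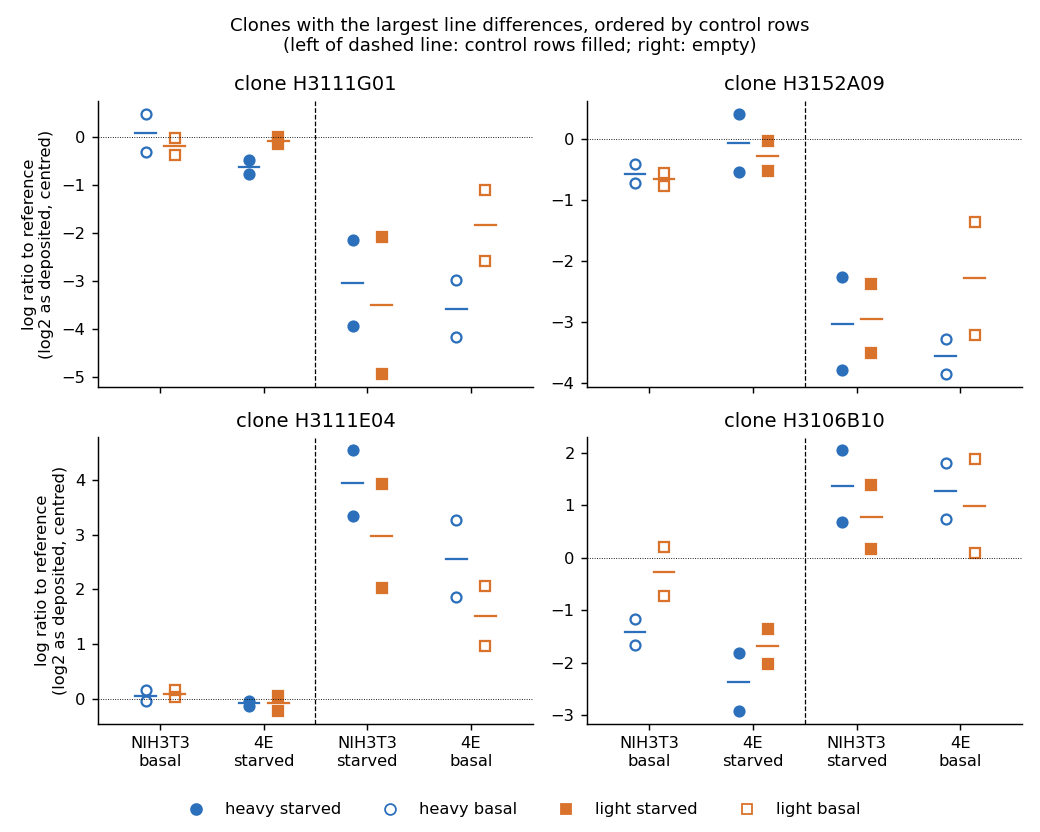
Centred log ratios (y axis, log2 as deposited) of clones H3111G01, H3152A09, H3111E04 and H3106B10, with groups ordered along the x axis by whether the control rows hold values (left of the dashed line) or are empty (right), 1 point per sample and a short line at the mean of 2 samples, for heavy (blue circles) and light (orange squares) polysomes, filled for starved and open for basal cells. The heavy samples separate by side of the dashed line in each clone, as the choice by this contrast favours.

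In the heavy samples the serum term held 16.8% of the total sum of squares, and its mean square was 1.51 times that of replicates. The line by serum term, which coincides with the split, held 22.8% (2.05 times) and the cell line 15.8% (1.41 times). Across clones the NIH3T3 and 4E differences correlated at r = -0.16 over 15203 clones and at 0.03 over the 4846 with unequal columns in all heavy samples. These differences share no sample, but an offset between the sides enters them with opposite signs. Its part in this correlation and in the match of signs was not tested. The signs of the lines matched at 6921 clones (45.5%). Within the sides, 22 clones (0.145%) differed between 4E starved and NIH3T3 basal and 8 (0.0526%) between NIH3T3 starved and 4E basal samples. Of the 3 in both lists, 0 had the same sign. These contrasts change the line along with serum.

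**Figure D5:**
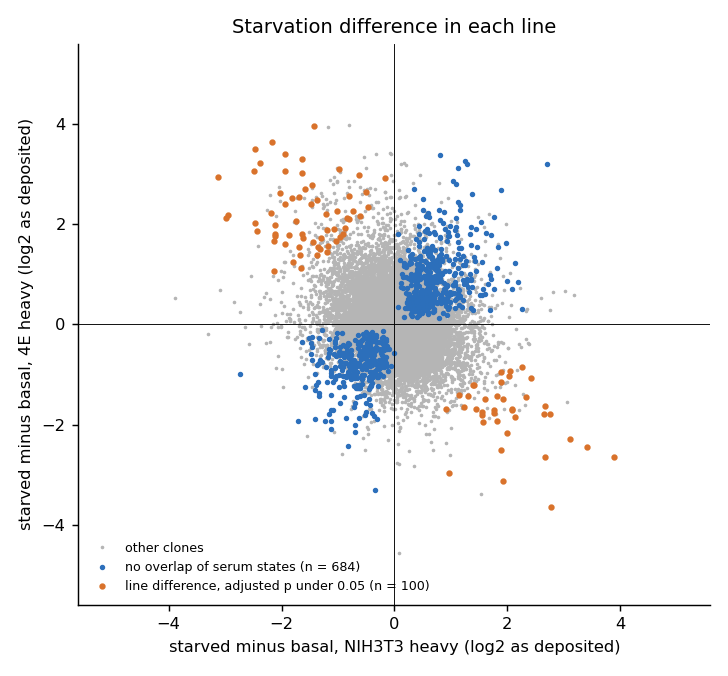
Starved minus basal difference in heavy polysomes of NIH3T3 (x axis) and 4E cells (y axis), log2 as deposited, for 15203 clones, with the 684 clones whose serum states do not overlap (blue) and the 100 whose response differed between the lines (orange). The orange clones lie in the quadrants of opposite sign and the blue ones in those of equal sign.

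The clone IDs can be read as a plate number and a well, and they give a position that the rule did not use. Clones without overlap made up 3.03% (plates 3081 to 3100) to 5.76% (plates 3121 to 3140) of those in a block of 20 plates, against 4.50% of all. By single plate their share ranged from 0% to 11.5%. Over the blocks, clones with different responses in the lines were less even. There were 39 in plates 3101 to 3120 (2.04% of the clones there) and 0 in plates 3061 to 3080. Within the former block, plates 3105 to 3112 held 3 to 6 each (3.16% to 6.25% of a plate's clones), against 0.658% of all. Clones without overlap numbered 0 to 4 in each of these plates (0% to 4.21%), against 4.50% of all. Clones H3105C02, H3106B10, H3109F04, H3111E04 and H3111G01, named above, have IDs of these plates. Plate medians of the average difference lay between -0.11 and 0.20 over 159 plates. The plate medians of the NIH3T3 and 4E differences correlated at r = -0.52 over the 159 plates, as a description of plates that share arrays. An offset between the sides enters these medians with opposite signs as well. Over the 12 well columns, clones with starved above basal samples made up 1.74% (column 8) to 3.88% (column 5), against 2.51% of all, and those with starved below 0.71% (column 6) to 3.23% (column 2), against 1.99% of all. The part of array position in the results was not tested beyond centring each sample within each plate. That left 0 clones for the average and 89 for the difference between the lines.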

How the data were processed

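The deposited values are the authors' log ratios of polysome samples against a common reference, per the labels, here taken as log2. Upstream software, log base, centring and direction were not given in the sources used here. The largest size was 11.3, and whether the log is natural or to base 2 was not tested. In every pair of title numbers (1 with 2, 3 with 4) one column was never below the other (tolerance 1e-06), so pairs were averaged. Samples were centred on their medians, which shifted heavy samples by at most 0.052. Clones measured in every sample of a comparison were tested with limma (version 3.58.1, R 4.3.3), Benjamini-Hochberg adjustment over all clones and a threshold of 0.05. Heavy and light averages used cell line as covariate (5 residual degrees of freedom, prior 5.59 for heavy). Single lines and their difference used 4 heavy group means (4, prior 5.99), and heavy against light used 8 group means (8, prior 6.51). The fits were also run on simulated data, with independent normal values and no offset between the sides. That check does not cover such an offset or samples that deviate together, and its outcome is not given here. Arrays limit precision by their number. In each comparison the named clones were the 2 of each sign with the largest difference past the threshold, or the 1 with the smallest p where none passed. Clones H3013C04 and H3053C12 were added. The comparison and its rule were chosen with earlier results of these data known. No gene list could be run, and no sequence was available to print.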

Additional observations from a re-analysis of the deposited data

Results flagged for a closer look

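The second 4E starved heavy sample stood apart from the other heavy samples in its spread (median absolute deviation 0.739, median of the others 0.576), in its median correlation with them (0.387 against 0.515) and in its median before centring (0.0523 against 0.00855). Among the named clones, H3128D02 had 1 NIH3T3 light basal sample at -0.24 with the other light basal samples at a median of -1.23. H3072H07 had 1 NIH3T3 heavy basal sample at 0.49 (others -0.11), and H3053C12 had 1 at 5.03 (others 1.03). Chance marks about 1 in 20 such groups, and 68 were looked at. The starvation response differed between the lines at 100 clones, with the largest differences at H3111G01 (6.07), H3152A09 (5.96), H3111E04 (-6.55) and H3106B10 (-6.42). That term coincides with the control-row split, and the cause was not tested.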

How the results depend on the processing

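No alternative reversed the sign of a named clone. The count for the average of both lines in heavy polysomes (0) was 1 with quantile normalization, with scaling to one median absolute deviation, with array weights and with the replicate block, 3 among clones with unequal columns, 64 in the fit of all 16 samples and 1380 with each deposited column as a replicate. It stayed at 0 with no centring, plate centring, 4 group means, either column of each pair alone, or up to 2 missing samples. Heavy NIH3T3 (0) gave 11 with quantile normalization, 36 with all 16 samples and 2381 with columns as replicates. Heavy 4E (50) gave 1 with scaling to one median absolute deviation, 13 with the replicate block, 320 with all 16 samples and 3978 with columns. The difference between the lines (100) gave 263 with all 16 samples and 3720 with columns, and heavy against light (0) gave 231 with columns. Light (2) gave 6 with quantile normalization, 5 with scaling, 0 with plate centring, 1 with the replicate block, 10 with all 16 samples and 1294 with columns. Columns of a pair belong to 1 sample, which makes their spread too small. Leaving out 1 sample gave 0 to 1 (average), 0 to 53 (NIH3T3), 0 to 289 (4E), 16 to 129 (difference between lines), 0 to 6 (heavy against light) and 0 to 1 (light). Where no other cause is given, the cause was not tested. Deviations of same-numbered samples correlated between heavy groups at -0.30 to 0.23, so the numbers were not taken to pair samples. Plate centring and the fit of heavy minus light differences were chosen after seeing the data. Signal over background is not used here.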
